A study of Mus musculus with 6 samples.

Results

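Carbonic anhydrases are the enzymes that interconvert carbon dioxide and water with bicarbonate and a proton. This account describes the 10 carbonic anhydrase genes with the brightest probes on expression arrays of 2T3 cells, a mouse pre-osteoblast line. The arrays held a probe for 13 genes whose symbol was Car followed by a number, among 8841 genes with a single symbol. The 10 members were chosen by this symbol and by the highest mean deposited intensity over the 6 arrays. The family was also picked with the result for Car6 already known. The mean intensity of a member is therefore a description, and the values of Car6 are given as a description of the gene that drew attention to the family.

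The study compared 3 static samples with 3 samples exposed to simulated microgravity on a Random Positioning Machine, a device that keeps turning a culture so that gravity has no lasting direction. All 6 samples were grown in OptiCells, closed cassettes with gas-permeable walls, and total RNA of each sample gave 1 array. The labels name no genotype, agent, passage or length of exposure for either group, and nothing in them says whether replicates were separate cultures. A p-value here thus reflects only how far these samples scatter, and that scatter may be technical. 2T3 is 1 established line, so no other osteoblast source stood beside it. Of the genes that define osteoblasts, Alpl (2.85 ± 0.513 times the array median in static cells, SD, n = 3) and Col1a1 (33.1 ± 11.3) were bright and Ibsp (0.230 ± 0.0673) was dim. Runx2, Sp7, Bglap and Spp1 were not analysed here.

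Carbonic anhydrases are zinc enzymes, and they are sorted by where they work. Car1, Car2, Car7 and Car13 are cytosolic, Car5a and Car5b are mitochondrial, Car4 and Car15 are anchored to the outer face of the plasma membrane, and Car6 is secreted. Car8, Car10 and Car11 are related proteins that lack the catalytic activity. In bone the family is best known for Car2, which supplies the protons that osteoclasts secrete to dissolve mineral. Car6 is best known from saliva and milk. A shorter form of Car6 that stays inside the cell is made under stress of the endoplasmic reticulum, from an internal start, and depends on the transcription factor CHOP (Ddit3). The sources used here do not say which part of the Car6 transcript the probe matches, and the secreted and the shorter form could not be told apart.

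Intensities are given relative to the median of their array, so that 1 is the median probe. Brightness also depends on the probe, so levels of different genes were not ranked against each other. Each array carried 10337 to 10432 values. A value under 0.1 of the array median was set to 0.1 before log2 was taken, and a change is the mean log2 value of the microgravity arrays minus that of the static arrays. The test was limma, a linear model fitted to 10146 probes together, with Benjamini-Hochberg adjustment over all of them and a threshold of 0.05.

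Of the 10 carbonic anhydrases, 1 passed the threshold, and it was higher in simulated microgravity. Over all probes 0.276% passed in either direction (28 of 10146) and 0.0887% passed as higher. Groups did not overlap in 1 of 10 members, against 15.7% of all probes in either direction and 8.11% as higher. At an unadjusted p under 0.05 the count was again 1 of 10, against 10.8% of all probes. Each of these counts of 1 is Car6. The unadjusted count was 2 of 10 with quantile and with cyclic loess normalization, beside 1183 and 1131 of 10146 probes. Leaving out static 3, microgravity 1 or microgravity 3 also gave 2. All 10 members passed the filter on low values, but 2 of them, Car2 and Car8, had values at the floor.

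**Figure D1:**
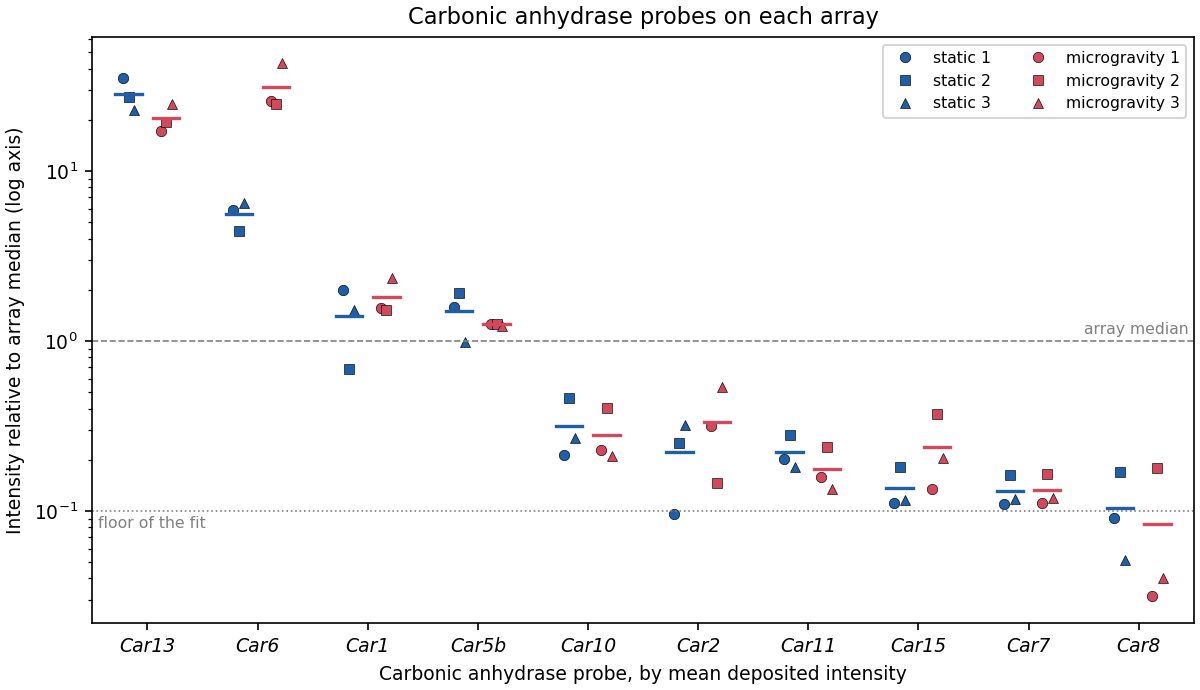
Intensity of the 10 carbonic anhydrase probes on each of the 6 arrays, relative to the array median and on a log axis. Colours mark the groups, symbols the replicate numbers, horizontal bars the arithmetic mean of 3 arrays, and dotted and dashed lines the floor of 0.1 and the array median. Car6 is the member whose microgravity arrays, at 24.7 to 42.9, all lie above its static arrays, at 4.44 to 6.44.

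Car6 was brighter in every microgravity sample than in any static sample. It read 5.86, 4.44 and 6.44 times the array median on static 1, 2 and 3, and 25.7, 24.7 and 42.9 on microgravity 1, 2 and 3. The lowest microgravity array stood 3.83-fold above the highest static array, so the groups did not overlap. In static cells Car6 lay at the 79.2nd percentile of the probes on an array and in simulated microgravity at the 95.9th, means over 3 arrays. The mean rose from 5.58 ± 1.03 to 31.1 ± 10.3 (SD, n = 3), and the ratio from the mean log2 values was 5.45-fold (log2 change 2.45, SE 0.26, 95% interval 1.83 to 3.06, limma adjusted p = 0.0378).

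Among all 10146 probes the increase of Car6 ranked 2 by size and 10 by p. The probe with a larger increase had no gene name and did not pass the threshold (log2 change 2.49, limma adjusted p = 0.560). The microgravity arrays of Car6 were less even than its static arrays (coefficient of variation 33.0% against 18.4%), and microgravity 3 was 1.70-fold above the mean of the other two. Without microgravity 3 the increase was 4.57-fold.

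The call of Car6 needed all 6 arrays. With static 1, 2 or 3 or microgravity 1, 2 or 3 left out, the ratio stayed between 4.57 and 6.03, while the limma adjusted p was 0.0823 to 0.201 and 0 probes of the whole table passed, with 761 to 968 probes at an unadjusted p under 0.05. Car6 also missed the threshold when probes at the floor on every array were kept in the test (limma adjusted p = 0.0630, log2 change 2.45).

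**Figure D2:**
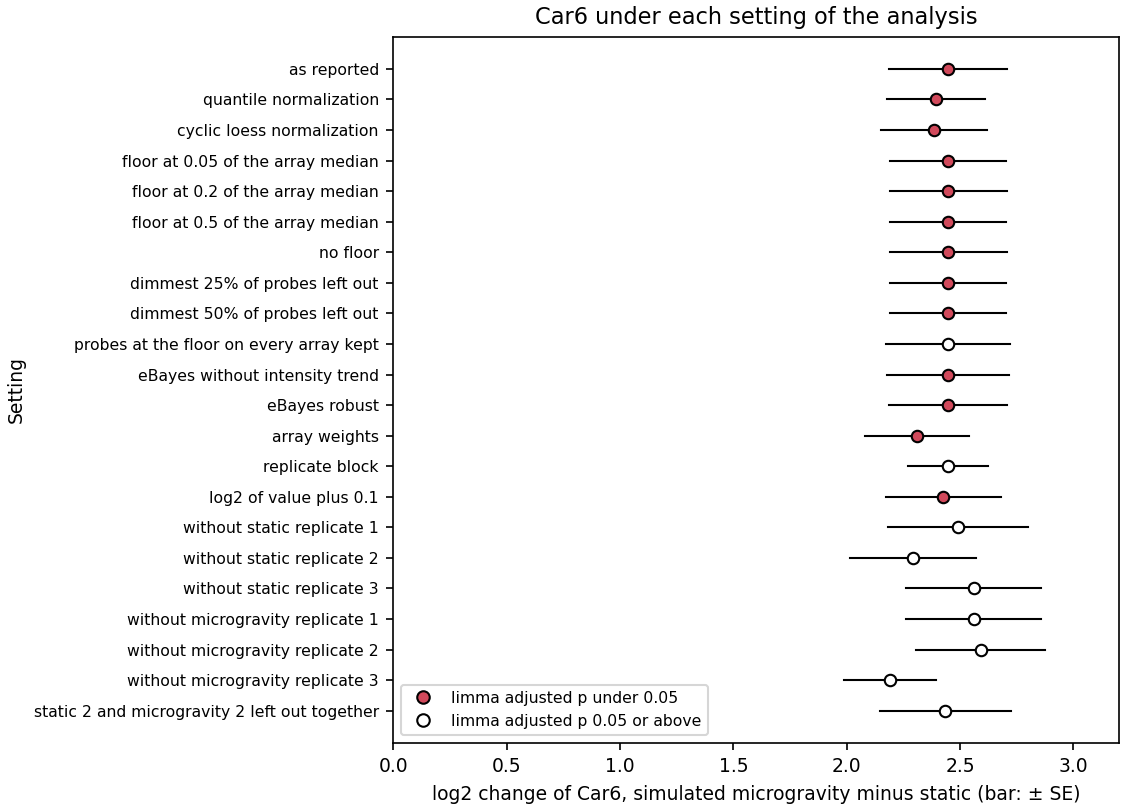
Log2 change of Car6, simulated microgravity minus static, as reported and under 21 other settings, 1 per line, with bars of 1 SE. Filled points passed the limma threshold and open points did not. The change stays between 2.19 and 2.59 in all settings, and 12 of the 21 passed. Settings of the floor and of the filter on dim probes cannot alter the change of so bright a probe, only its SE and p.

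The 300 bases around the annotated start of Car6 are shown because Car6 is the member that passed the test, and because its stress-inducible form ties it to factors with known recognition patterns. The sequence is RefSeq's on GRCm38.p6, chr4:150201086-150201385, minus strand, with 250 bases before the start and 50 from the start on. Capitals mark CACGTG, an E-box.
Car6: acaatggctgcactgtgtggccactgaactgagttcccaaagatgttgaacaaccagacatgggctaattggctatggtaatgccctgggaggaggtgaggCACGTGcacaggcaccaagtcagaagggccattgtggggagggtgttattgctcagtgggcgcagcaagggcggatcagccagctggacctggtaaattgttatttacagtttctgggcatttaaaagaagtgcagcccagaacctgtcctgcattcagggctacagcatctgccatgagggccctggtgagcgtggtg
The E-box begins at position -149 from the start. It also holds both matches to ACGTG, the core of the element that hypoxia-inducible factors bind. CACGTG was found in 7.15% of all 32851 such windows of the mouse table and ACGTG in 19.6%, on either strand. The composite element of C/EBP and ATF factors, TGATGNAA, had 0 matches in the Car6 window on either strand, and 3.97% of all windows held one. A C/EBP-like pattern, TTGCNNAA, also had 0 matches, against 10.8% of windows. CCAAT, searched as well, had 1 match, beginning at position -183 on the opposite strand, and 37.4% of windows held one. TATAAA had 0 matches, against 13.6% of windows. The table gives 1 start for Car6, and an internal start would lie outside this window. Windows were found for 6 of the 10 members, and Car13, Car1, Car2 and Car8 had none. TGATGNAA was found in 2 of the 10 windows of these members, which are the overlapping windows of Car11.

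None of the 4 cytosolic members, Car13, Car1, Car2 and Car7, passed the threshold. Car13 read 35.3, 27.4 and 22.9 on static 1, 2 and 3 and 17.1, 19.4 and 24.8 on microgravity 1, 2 and 3. Microgravity 3 lay above static 3, so the groups overlapped, and static 1 and microgravity 3 were the high arrays of their groups. Its means were 28.5 ± 6.26 and 20.4 ± 3.99 (log2 change -0.48, SE 0.22, 95% interval -0.998 to 0.0455, limma adjusted p = 0.523). The change of Car13 had a negative sign in all 21 alternative settings, from -0.63 to -0.31, and passed the threshold in 0 of them, with limma adjusted p of 0.212 to 0.844.

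Car1, the isoform that is abundant in red blood cells, read 1.99, 0.684 and 1.52 on the static arrays and 1.57, 1.52 and 2.34 on the microgravity arrays. Static 2 was the low array and microgravity 3 the high one, and the groups overlapped. Its log2 change was 0.48 (SE 0.42, 95% interval -0.52 to 1.47, limma adjusted p = 0.857). The alpha globin gene Hba-a1, named after its values were seen, had a like order, with 1.13, 0.324 and 0.996 on the static arrays and 1.11, 0.758 and 1.59 on the microgravity arrays. Log2 values of Car1 and Hba-a1 correlated at 0.97 over the 6 arrays, which share RNA preparations and scaling, and 10 of 4647 other genes correlated with Car1 more closely. Of 15 red cell markers, 9 were measured and 0 passed the limma threshold, beside 0.276% of all probes. At an unadjusted p under 0.05 there was 1 marker, the transferrin receptor Tfrc, beside 10.8% of all probes. The 8 with a value on all 6 arrays, all but the heme synthesis enzyme Alas2, summed to 14.3 to 16.9 on static and 17.6 to 22.7 on microgravity arrays. Without Tfrc the sums overlapped, at 12.1 to 13.4 and 11.9 to 14.9. Their part in the values of Car1 was not tested.

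Car2, the enzyme of osteoclast acid secretion and of red cells, was dim on all arrays. It read 0.0953, 0.252 and 0.318 on static 1, 2 and 3 and 0.315, 0.146 and 0.533 on microgravity 1, 2 and 3, with the groups overlapping over most of their range. The log2 change was 0.54 with a wide interval, -0.87 to 1.95 (SE 0.59, limma adjusted p = 0.873), so changes of over 2-fold upwards lay within its error. Of 17 osteoclast and macrophage markers 10 were measured, and their summed intensity was 19.4 to 22.5 on static and 18.2 to 24.7 on microgravity arrays. By limma 0 passed the threshold and 1, the protease Ctsk, had an unadjusted p under 0.05, beside 0.276% and 10.8% of all probes. Ctsk read 2.93, 4.18 and 3.35 on static and 5.29, 6.13 and 5.93 on microgravity arrays (ratio 1.67, limma adjusted p = 0.166). Its groups did not overlap, which held for 8.11% of all probes as higher. The sums rest most on Cd14, the brightest marker (ratio 0.777, overlapping groups). Mean log2 values were higher for 6 of the 10 markers and lower for 4. The osteoclast phosphatase Acp5 was at 0.141 to 0.166 in static cells and at 0.103 to 0.192 in simulated microgravity.

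Car7, a cytosolic isoform known from neurons, was dim and even, at 0.110, 0.162 and 0.118 on the static arrays and 0.111, 0.166 and 0.119 on the microgravity arrays. Replicate 2 was the high array in both groups. Its log2 change was 0.02 (95% interval -0.51 to 0.55), and the sign turned with quantile (-0.07) and cyclic loess normalization (-0.01).

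Car13, Car1 and Car2 are neighbours in the mouse genome. In the NCBI gene table of GRCm38.p6, Car13, Car1, Car3 and Car2 follow each other on 1 chromosome with 0 other protein-coding genes between them. The log2 changes of Car13 (-0.48), Car1 (0.48) and Car2 (0.54) differed in sign, and the groups overlapped in each.

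Of the mitochondrial isoforms, Car5b was among the members. It read 1.58, 1.92 and 0.987 on static 1, 2 and 3 and 1.25, 1.26 and 1.23 on microgravity 1, 2 and 3. Static 3 lay just under the array median and the other arrays above it. The microgravity arrays differed by far less than the static arrays and lay inside their range. The log2 change was -0.21 (SE 0.27, 95% interval -0.86 to 0.44, limma adjusted p = 0.894).

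Car15, which is held at the membrane by a lipid anchor, had the largest positive change after Car6 but did not pass the test. It read 0.111, 0.180 and 0.116 on the static arrays and 0.134, 0.372 and 0.205 on the microgravity arrays. The high static array, static 2, lay above the low microgravity array, microgravity 1, so the groups overlapped. The log2 change was 0.71 (SE 0.39, 95% interval -0.22 to 1.65, limma adjusted p = 0.645).

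The related proteins without catalytic activity were all dim. Car10, which is found mainly in brain, read 0.214, 0.461 and 0.268 on static and 0.227, 0.403 and 0.209 on microgravity arrays (log2 change -0.16, 95% interval -1.06 to 0.75). Without static 2 its change was 0.16 and without microgravity 3 it was 0.02, so its sign rested on those arrays. Car11 read 0.202, 0.279 and 0.181 on static and 0.158, 0.237 and 0.135 on microgravity arrays (log2 change -0.34, 95% interval -0.99 to 0.31). Groups overlapped for Car10 and for Car11, and replicate 2 was the high array in each group.

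Car8, which binds the inositol trisphosphate receptor, had 4 of its 6 values at the floor. It read 0.0903, 0.170 and 0.0515 on static 1, 2 and 3 and 0.0315, 0.179 and 0.0404 on microgravity 1, 2 and 3, so only replicate 2 of each group exceeded 0.1. Its log2 change of 0.02 (95% interval -0.71 to 0.76) had the opposite sign with quantile (-0.05) or cyclic loess normalization (-0.01) and with no floor (-0.60). Just outside the choice by mean intensity lay Car5a, with a mean deposited intensity of 0.0741 against 0.0857 for Car8, followed by Car4 (0.0697) and Car3 (0.0570).

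**Figure D3:**
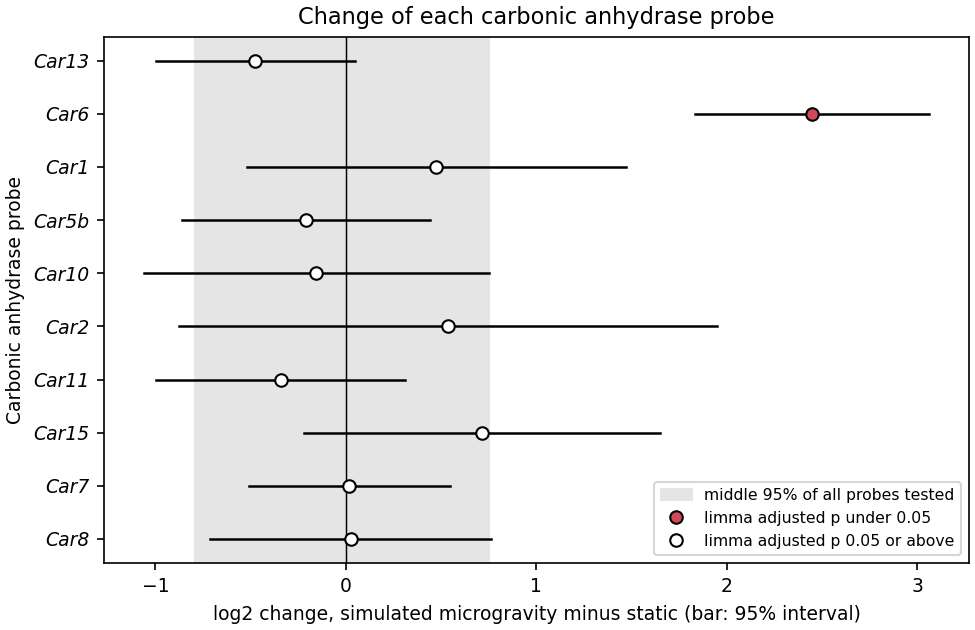
Log2 change of each of the 10 carbonic anhydrase probes, simulated microgravity minus static, with its 95% interval from limma. The grey band holds the middle 95% of the changes of all 10146 probes, from -0.79 to 0.75. Car6, filled, lies at 2.45, and the intervals of the other 9 all include 0.

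Of the 9 members other than Car6, 5 had higher and 4 had lower mean log2 values in simulated microgravity, with a median log2 change of 0.02. The median over all genes tested was 0.05, and 56.6% of genes had higher values. The 95% interval lay within a 2-fold change in both directions for 5 of the 9, namely Car13, Car5b, Car11, Car7 and Car8. The lower ends for Car13 (-0.998) and Car11 (-0.995) lay just inside that limit. The SE of Car11 was 0.275 as reported and 0.343 with no floor. The floor narrows the interval of Car8. For Car1, Car10, Car2 and Car15 it reached past 2-fold in at least 1 direction.

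The dim members shared a pattern across arrays. Of the 6 members whose brighter group mean lay under 0.5 of the median, 5 were highest on static 2 among the static arrays and the same number were highest on microgravity 2 among the microgravity arrays. The exception was Car2 in both groups, highest on static 3 and on microgravity 3. Static 2 and microgravity 2 also had fewer values at the floor, 9.16% and 6.44% against 17.1% to 19.8% on the other arrays. Of the 3489 probes this dim with a value on all arrays, 63.1% were highest on static 2 within their group and 68.2% on microgravity 2, so this pattern was shared with the dim part of the whole table. With both of these arrays left out together Car6 had a log2 change of 2.44 (limma adjusted p = 0.204), and 0 of 9 members that could be tested passed, with 1 at an unadjusted p under 0.05.

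**Figure D4:**
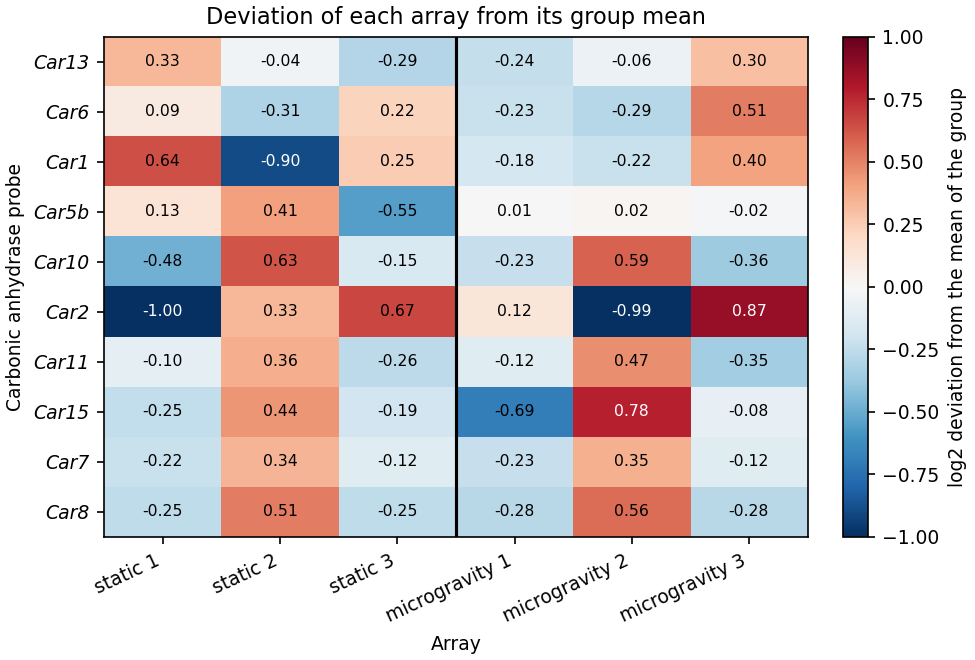
Log2 deviation of each array from the mean of its own group, for the 10 members, with red above and blue below the group mean. Static 2 and microgravity 2 are red for Car10, Car11, Car15, Car7 and Car8, between 0.34 and 0.78, while Car6 is above its group mean on microgravity 3 (0.51).

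The genes whose log2 values followed Car6 most closely over the 6 arrays were Cct2 (Pearson r = 0.993), a chaperonin subunit, Ifrd2 (0.993), Fgf21 (0.992), a stress-induced hormone, Fosl1 (0.991), a transcription factor of the AP-1 family, and Ccnq (0.991). They were the highest of 4647 genes whose brighter group mean lay above the median of all probes, of which 75 exceeded 0.95. Fgf21 entered this choice through its microgravity arrays alone, since its static mean lay under the median. The 6 arrays fall into the 2 groups, so this measure mostly ranks genes by how cleanly the groups differ. Of these genes, Fgf21 passed the threshold, from 0.411 ± 0.0118 to 1.33 ± 0.208 (SD, n = 3, limma adjusted p = 0.0464). By deviations from the group means, which leave out the difference between groups, the closest genes were Btg3, Vdac3, Mrpl40, Cct3 and Srpx2, at 0.980 to 0.988, and none of the 5 was on the first list. How many of the 4647 genes exceeded 0.95 by this measure was not counted, so these values have no background beside them.

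Genes of the CHOP and ATF4 stress response were listed because the short form of Car6 depends on CHOP. Of 28 measured genes, 2 rose, 0 fell and 26 did not pass, beside 0.0887% of all probes that passed as higher. Fgf21 rose as given above, and Cth, which makes cysteine, read 5.52, 5.90 and 5.95 on static and 13.0, 12.7 and 17.6 on microgravity arrays (log2 change 1.30, SE 0.17, limma adjusted p = 0.0464). Microgravity 3 was the high microgravity array for Fgf21, for Cth and for Car6, and also for Car13, Car1 and Car2. The share of all probes that were highest on it was not counted. Fgf21 had already been named for following Car6 over these same arrays.

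Mean log2 values were higher in simulated microgravity for 27 of the 28 and lower for the chaperone Hsp90b1 (ratio 0.824). The 27 include Cebpb at a ratio of 1.00, and the count was 26 of 28 with quantile and with cyclic loess normalization. The median log2 change was 0.41, against 0.05 over all genes. The range of that median was 0.34 to 0.54 over the 21 alternatives. Groups did not overlap for 15 of the 28, each higher, against 8.11% of all probes. Next by p came the oxidase Ero1a (ratio 2.33), Ppp1r15a (1.99), which restores translation after stress, and the serine synthesis enzyme Phgdh (1.67), with limma adjusted p of 0.0737 to 0.132. The regulators that name the list did not pass. Ddit3 read 43.2, 57.8 and 46.3 on static and 47.0, 51.9 and 62.9 on microgravity arrays (log2 change 0.14, 95% interval -0.31 to 0.59), with overlapping groups, and Atf4 had a log2 change of 0.13 (95% interval -0.40 to 0.65). Hsp90b1, Cebpb, Ddit3 and Atf4 were named after their values were seen. This list was drawn up with earlier results known and overlaps genes already seen to rise, so its counts are a description.

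Hypoxia-inducible factor targets were listed because the membrane isoforms Car9 and Car12 belong to them. Neither had a probe with that single symbol, so both were not analysed here, as was Car14. Of 22 measured targets 0 passed the limma threshold, 7 had an unadjusted p under 0.05, all of them higher, beside 10.8% of all probes in either direction, and the median log2 change was 0.33 (0.23 to 0.45 over the alternatives). The smallest p-values were those of Higd1a, a mitochondrial protein, Ldha, which makes lactate, and Hk2, the first enzyme of glycolysis, at ratios of 1.50, 1.50 and 1.57 (limma adjusted p 0.178 to 0.231).

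**Figure D5:**
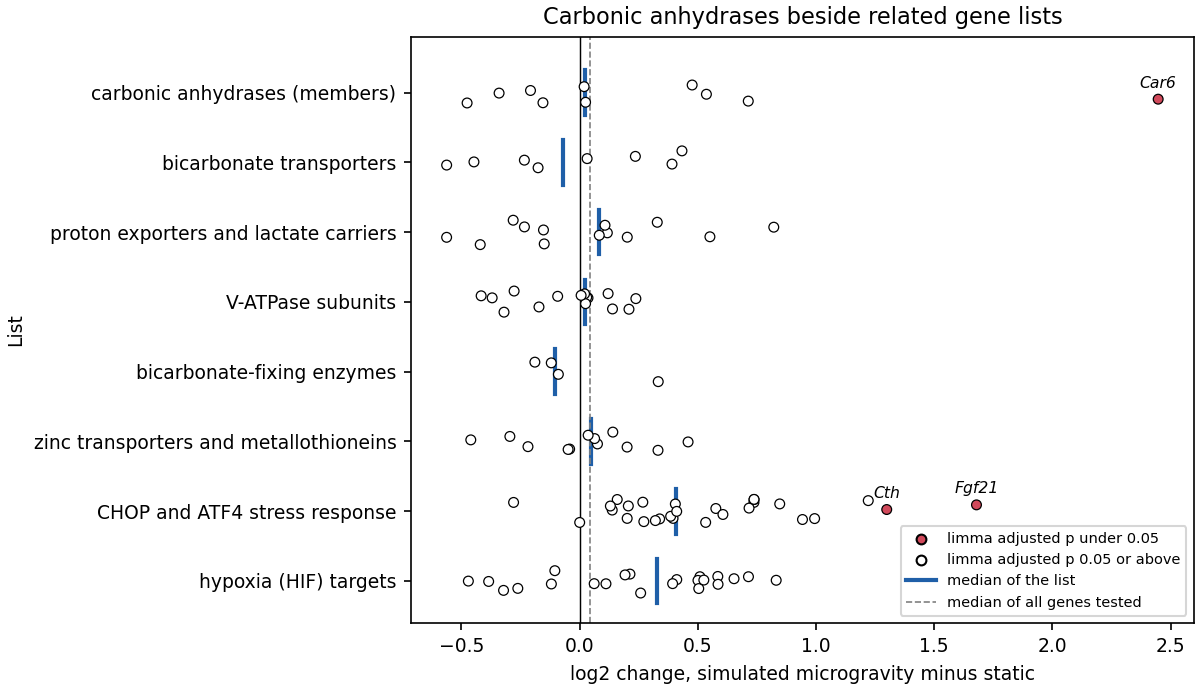
Log2 change, simulated microgravity minus static, of the 10 carbonic anhydrases and of the measured genes of 7 related lists, 1 point per gene. Blue bars are list medians, the dashed line is the median of all genes (0.05), and filled points passed the limma threshold. Car6, Fgf21 and Cth are the genes that passed.

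Partners of the enzymes in acid and base transport did not pass the limma threshold in any of the lists drawn up here. Over all probes 0.276% passed in either direction, so 0 calls in lists this short lie near that share. An unadjusted p under 0.05 was found for 10.8% of all probes. Of 8 measured bicarbonate transporters 0 passed (1 at an unadjusted p under 0.05), with a median log2 change of -0.07. The smallest p was that of the sulfate and anion carrier Slc26a2, from 0.551 ± 0.0370 to 0.373 ± 0.00446 (limma adjusted p = 0.354), followed by Slc26a4 (ratio 0.733) and Slc4a8 (1.31). Of 13 proton exporters and lactate carriers 0 passed (1 at an unadjusted p under 0.05, median 0.08), led by the chloride and proton exchanger Clcn3 at a ratio of 1.77 (limma adjusted p = 0.268), the proton channel Hvcn1 (0.677) and Clcn5 (0.747). The 15 measured subunits of the vacuolar proton pump had a median of 0.02 and 0 past the limma threshold (1 at an unadjusted p under 0.05), and those with the smallest p were Atp6v0d1, Atp6v1d and Atp6v0e at ratios of 0.774 to 0.825. The sign of these 3 medians turned in at least 1 alternative.

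Enzymes that fix bicarbonate and genes of zinc supply also held no called member, beside the same 0.276% and 10.8% of all probes. Of 4 measured bicarbonate-fixing enzymes 0 passed by limma (0 at an unadjusted p under 0.05), with Pccb, Cad and Mccc1 at ratios of 0.877, 1.26 and 0.920. Of 12 measured zinc transporters and metallothioneins 0 passed by limma (1 at an unadjusted p under 0.05), with a median of 0.05 that turned sign in at least 1 alternative. The zinc exporter Slc30a4 had the smallest p, from 30.5 ± 3.97 to 41.8 ± 1.58 (limma adjusted p = 0.325), followed by Slc39a9 (ratio 1.26) and Slc30a7 (0.815).

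Markers of salivary and other exocrine glands, where Car6 is abundant, were dim. Of 18 such markers 7 were measured, and 0 of them lay above the array median in either group. Their summed intensity was 2.16 to 3.15 on static and 1.99 to 3.05 on microgravity arrays. Of the 7, 0 passed the limma threshold and 0 had an unadjusted p under 0.05, beside 0.276% and 10.8% of all probes. Amylase (Amy1) was at 0.312 to 0.906 in static cells and 0.223 to 0.946 in simulated microgravity, and the secretory factor Bhlha15 at 0.122 to 0.197 and 0.108 to 0.216. Of 16 measured skeletal muscle markers Cox6a2 rose (ratio 2.67) and Actn3 fell (ratio 0.314), beside 0.276% of all probes that passed in either direction. The 15 with a value on all 6 arrays, all but Tnni1, summed to 13.6 to 15.6 on static and 27.0 to 33.7 on microgravity arrays. Without Cox6a2 the sums were 4.30 to 4.84 on static and 3.21 to 3.77 on microgravity arrays, so the higher sum rested on that gene. The myosin Myh2 was at 0.0447 to 0.0831 on static and at 0.0578 to 0.210 on microgravity arrays. The part of these cells in the values of Car6 was not tested. Of 11 measured osteoblast markers 3 fell, Pth1r, Alpl and Omd, and 0 rose, again beside 0.276% of all probes. In bulk RNA of a culture, more cells that make Car6 and more Car6 RNA per cell cannot be told apart.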

How the data were processed

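Total RNA of 6 samples, 3 static and 3 under simulated microgravity, was profiled on 1 array each. The deposited table holds intensity values on a linear scale for 10500 probes. The sources used here do not say how the authors scaled them, who made the array or which genome build it rests on. The column medians were 0.908 to 0.927, so the table was taken as already scaled. No intensity was called absent, since no detection calls were used.

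Intensities were divided by the median of their array, raised to 0.1 where lower, and turned into log2. A probe was dropped if it sat at the floor throughout or if a group had under 2 values for it (354 probes), and 10146 were tested. Groups were compared with limma 3.58.1 in R 4.3.3 (lmFit, eBayes with trend, 2-sided, Benjamini-Hochberg over all probes), with intervals of 95%. The precision is limited by 3 arrays a group. Symbols came from GEO's platform annotation (8983 probes with 1 symbol, 8975 found in NCBI's mouse table). A listed gene was represented by its brightest probe, and lists were described by counts and medians with no set test.

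The genes named were all members, each called gene of a pathway list with the 3 next by p, and the 5 genes most like each member above the median. Others are said to be named after their values were seen, or are markers. The members and lists were chosen with earlier results of these data known. Same-numbered samples were checked for pairing. The correlations of their deviations from group means were -0.21, 0.46 and -0.18, so the numbers were not taken as pairs.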

Additional observations from a re-analysis of the deposited data

How the results depend on the processing

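Of the 10 carbonic anhydrases, 1 passed, and the count was 0 with probes at the floor on every array kept, with the replicate block, with static 2 and microgravity 2 left out together, and with any single array left out (0 to 0), and 1 in the other 12 settings. Over all probes the 28 became 54 with quantile and 57 with cyclic loess normalization, 53 with the floor at 0.05, 59 with no floor, 62 with log2 of value plus 0.1, 56 and 55 with the dimmest 25% and 50% of probes left out, 115 with array weights, 1 with probes at the floor kept, and 0 with the replicate block, with static 2 and microgravity 2 left out together, or with any single array left out (0 to 0). Limma with the replicate block left 938 probes at an unadjusted p under 0.05 and gave Car6 an adjusted p of 0.245. Among all 21 settings Car6 kept its direction (log2 change 2.19 to 2.59). Settings of the floor, the filter, eBayes and the block could not alter the log2 change of so bright a probe. Leaving out arrays could not turn its sign, since its groups did not overlap. The sign turned for Car10 in 2 of 19 settings that gave it a value, Car7 in 6 of 17 and Car8 in 8 of 16, with no call in any. Signs of members near the floor are limited by their dimness.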

Other observations

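The other members above the array median had their own closest genes over the 6 arrays, among 4647 genes, given by Pearson r of log2 values. For Car13 they were Card19, Pir, Msx2, Ubl5 and Cnih2, at 0.987 to 0.994. Msx2, a homeobox factor of skull and limb development, had 8.85 ± 2.35 times the array median in static cells and 6.25 ± 1.76 in simulated microgravity (SD, n = 3, limma adjusted p = 0.619). For Car1 they were Mlxipl, Rabgef1, Gsx1, Mmd and Vnn1, at 0.976 to 0.993. For Car5b they were Cdc20, Ptprd, Ostc, Ppp1r10 and Sra1, at 0.930 to 0.957, and 1 gene exceeded 0.95. None of these 15 genes passed the limma threshold, and no gene stood on the lists of more than 1 member.

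The genes of the family outside the 10 members lay near or under the floor on most arrays. Car5a, the liver mitochondrial isoform, read 0.0651, 0.133 and 0.0432 on static and 0.0650, 0.0894 and 0.0909 on microgravity arrays. Car4, a membrane isoform, exceeded 0.1 on microgravity 2 alone (0.185). Car3, which is abundant in muscle and fat, exceeded it on static 2 (0.114) and microgravity 2 (0.112).

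Metallothionein 2 (Mt2), a zinc-binding protein named after its values were seen, varied far more within groups than between them. It read 63.4, 18.9 and 11.1 on static 1, 2 and 3 and 10.7, 6.80 and 70.5 on microgravity 1, 2 and 3.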
